A study of Mus musculus with 2 samples.

Results

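The genes described here are 37 genes of glycolysis and of the response to low oxygen, picked by symbol: the transporters of glucose and lactate, the enzymes that split glucose, and the sensors, transcription factors and targets of the hypoxia pathway. They were followed in mouse embryonic fibroblasts homozygous for Phc2 L307R and in wild-type fibroblasts, with 1 expression array for each genotype. Both cultures were of the C57BL/6 strain, came from embryos of day 12.5 and had reached passage 1, and neither label names a low-oxygen treatment. Phc2 belongs to Polycomb repressive complex 1, a silencer of developmental genes, and the changed residue lies in its SAM domain, through which Phc2 molecules join into chains. A gene took its value from the probe set with the highest mean log2 signal among those that carry only its symbol. Of the 37 genes, 34 had such a probe set, of 18194 genes with one in the whole table. Gpi1 and Eno1 had none, and the 3 probe sets of Bnip3l also carried a second symbol, so these 3 genes have no value. Gapdh was carried only by the array's own Gapdh control probe sets, which were used for it. Of the 34, 32 were measured, that is, above the floor of 94.8 signal units on at least 1 array, and 31 of these lay above it on both.

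Glycolysis breaks glucose down to pyruvate, and lactate dehydrogenase turns pyruvate into lactate when cells ferment. When oxygen is scarce, hypoxia-inducible factors escape the prolyl hydroxylases that mark them for destruction and bind DNA at a core sequence, ACGTG or GCGTG, where they raise many glycolytic genes along with genes of survival, vessel growth and collagen folding. The factors themselves are controlled mainly as proteins, so their transcripts need not follow their activity. Cultured fibroblasts rely strongly on glycolysis.

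Glycolytic enzymes were mostly slightly higher in Phc2 L307R, while the sensors, factors and targets of the hypoxia pathway were divided. Of 13 measured enzymes 10 were higher, with a median log2 ratio (Phc2 L307R minus wild type) of 0.21. Of 12 measured hypoxia-response genes 5 were higher and 7 lower, with a median of -0.05. The median over all 11409 measured genes was 0.06, and 59.1% of them were higher. At least 1.5-fold higher were 2 of the 32 measured members, Eno2 and Adm, a share of 6.25% against 4.19% of all measured genes. None was at least 1.5-fold lower, against 3.25% of all measured genes, and none reached 2-fold in either direction, against 1.11%. Over all measured genes 478 passed 1.5-fold upward and 371 downward, which centring on the median of measured genes turned to 338 and 487. The members' shares lie near those of all genes and say nothing particular about the members. With 1 array per genotype no difference has a replicate error or a test, and each is one between 2 cultures.

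**Figure D1:**
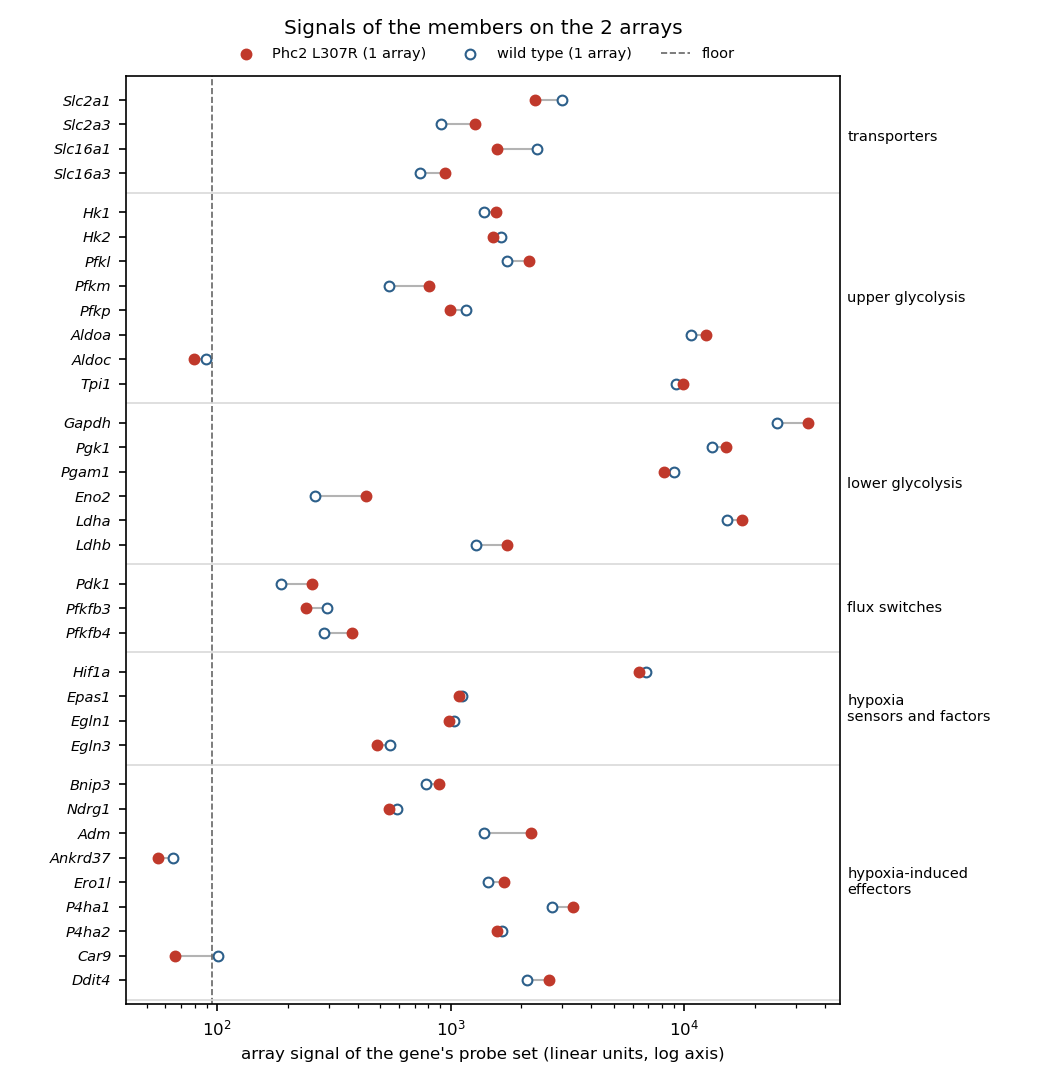
Array signal (linear units on a log axis) of the probe set used for each of the 34 genes, in Phc2 L307R (filled) and wild type (open), 1 array each, with the floor of 94.8 dashed. Eno2, Adm, Pfkm and Slc16a1 show the widest gaps among genes above the floor on both arrays, and Aldoc and Ankrd37 lie below the floor on both.

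The promoters of 4 members show how the ACGTG form of the core sequence is spread. Adm and Eno2 are shown as the members of highest log2 ratio, Slc16a1 as that of lowest, and Ldha as a classical target of these factors. They were chosen after their values were seen. Each window runs from 250 bases before to 50 after an annotated start in RefSeq (GRCm38.p6), 300 bases in all. Capitals mark ACGTG or its reverse complement CACGT, which overlap where the palindrome CACGTG occurs.
Adm, chr7:110627407-110627706 (+ strand): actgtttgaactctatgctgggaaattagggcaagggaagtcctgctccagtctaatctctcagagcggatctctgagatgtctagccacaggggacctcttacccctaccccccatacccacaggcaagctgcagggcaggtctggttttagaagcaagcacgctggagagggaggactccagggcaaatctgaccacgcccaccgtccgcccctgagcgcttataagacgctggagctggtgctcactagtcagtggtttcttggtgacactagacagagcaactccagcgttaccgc
Eno2, chr6:124769624-124769923 (- strand): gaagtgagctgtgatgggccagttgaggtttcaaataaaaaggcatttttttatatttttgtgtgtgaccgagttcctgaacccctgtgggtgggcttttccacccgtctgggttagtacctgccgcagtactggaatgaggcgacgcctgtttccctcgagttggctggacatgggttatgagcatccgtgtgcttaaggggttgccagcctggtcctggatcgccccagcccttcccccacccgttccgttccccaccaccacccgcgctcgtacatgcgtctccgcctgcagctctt
Slc16a1, chr3:104638414-104638713 (+ strand): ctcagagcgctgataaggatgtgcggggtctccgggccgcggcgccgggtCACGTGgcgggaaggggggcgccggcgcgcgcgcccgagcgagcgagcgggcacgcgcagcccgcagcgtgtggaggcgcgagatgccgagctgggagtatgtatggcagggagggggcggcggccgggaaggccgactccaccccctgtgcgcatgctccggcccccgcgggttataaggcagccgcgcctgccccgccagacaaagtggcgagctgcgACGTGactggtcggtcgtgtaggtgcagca
Ldha, chr7:46845554-46845853 (+ strand): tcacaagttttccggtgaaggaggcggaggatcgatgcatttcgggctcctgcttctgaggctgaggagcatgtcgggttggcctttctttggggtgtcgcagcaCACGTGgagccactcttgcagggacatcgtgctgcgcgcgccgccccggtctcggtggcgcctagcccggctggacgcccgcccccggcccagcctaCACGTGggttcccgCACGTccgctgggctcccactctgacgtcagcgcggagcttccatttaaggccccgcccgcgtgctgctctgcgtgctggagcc
The Ldha window shown held 3 matches, which begin 145, 48 and 34 bases before the start, and the first pair are CACGTG. Ldha has another annotated start, and its window (chr7:46846832-46847131), not shown, held no ACGTG. The Slc16a1 window held 2, beginning 200 bases before the start and 20 bases past it. The windows of Adm and Eno2 held no ACGTG. A search for GCGTG on either strand, added after seeing the data, found it at 2 places in the windows of Adm, Slc16a1 and Ldha each and at 0 in that of Eno2.

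Members carried ACGTG more often than other genes did. This describes a list that was picked to include targets of the hypoxia pathway and is not a result of the arrays. RefSeq windows were found for 33 of the 37 genes, and 23 of these genes (69.7%) had ACGTG on either strand in at least 1 window, against 29.8% of 9265 measured genes and 21.8% of all 27025 genes of the promoter table. This form was present in 10 of 11 hypoxia-response genes, with Adm the exception, in 9 of 16 glycolytic enzymes and in 4 of 6 transporters and flux switches. Counted by window, the shares were 57.8% of 45 member windows and 25.6% of 11902 windows of measured genes. The windows had a median of 63.3% G and C among members and 61% among measured genes. Among windows with at least 60% G and C, 20 of 25 member windows (80%) held ACGTG, against 27.5% of 6581 windows of measured genes. Among windows below 60%, 6 of 20 did (30%), against 23.2% of 5321. GCGTG was found in as many members (23 of 33), but in 56.6% of measured genes, and either form was found in 30 of 33 members (90.9%) and 68.3% of measured genes. All 11 hypoxia-response genes had either form, and the members without one were Eno2, Gpi1 and Tpi1. By genotype, the 21 measured members with ACGTG had a median log2 ratio of 0.17, 11 of them higher, and the 8 without it a median of 0.42, 7 of them higher. Of these 8, only Eno2 and Tpi1 also lacked GCGTG. The split therefore does not separate members with the core sequence from members without it. A match is a description of these letters, not a bound site.

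Among the transporters, which let glucose in and lactate out, the 4 members differed in both directions. Slc16a1, a monocarboxylate carrier that moves lactate and pyruvate, gave 1576 signal units in Phc2 L307R and 2344 in wild type. It was 1.49-fold lower, a log2 ratio of -0.57, just short of the 1.5-fold threshold and the lowest of all members. With ratios centred on the median of measured genes Slc16a1 passed that threshold. Only 3.44% of measured genes lay lower. Its second probe set did not reach the floor on either array, and the value rests on probe set 1415802_at alone. Slc16a3, the lactate exporter of strongly glycolytic cells, was at 941.1 in Phc2 L307R and 739.7 in wild type, a log2 ratio of 0.35. The lactate carriers thus differed in opposite directions between these cultures.

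The glucose carriers also parted, and each depended on the probe set. Slc2a1, the common basal glucose transporter, had 2288 in Phc2 L307R and 2990 in wild type, a log2 ratio of -0.39, while its other probe sets gave -0.10 and 0.05. Slc2a3, a high-affinity glucose transporter known from neurons, had 1268 in Phc2 L307R and 908.2 in wild type, a log2 ratio of 0.48. Its other 3 probe sets ranged only from -0.13 to 0.04. The probe set used for it carries the suffix _s_at, which marks probes that may bind several transcripts. Without suffixes _s_at and _x_at the ratio of Slc2a3 was 0.04. Slc2a1 lies on chromosome 4, as Phc2 does, 64 measured genes away on the side of lower position. Car9 is the only other measured member on that chromosome, 323 measured genes away on the same side.

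Of the upper steps, which spend ATP to split glucose, 5 of 7 measured enzymes were higher in Phc2 L307R. Hk1, the hexokinase found in most tissues, had 1561 in Phc2 L307R and 1392 in wild type, a log2 ratio of 0.17. Hk2, the insulin- and hypoxia-responsive hexokinase, had 1519 in Phc2 L307R and 1637 in wild type, a log2 ratio of -0.11. Both hexokinases thus differed by less than the 0.32 SD found between probe sets of the same gene over 5461 genes with at least 2 measured ones. That SD is the only estimate of error these arrays hold, and it does not measure differences between cultures. It pools probe sets of every signal level and may include probe sets for different transcripts of a gene. Over genes, the SD of the log2 ratio was 0.39 at mean signals under 500 and 0.21 above 8000.

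The subunits of phosphofructokinase, the committed step of glycolysis, did not differ alike. Pfkm, the muscle type, had 808.1 in Phc2 L307R and 541.5 in wild type. It was 1.49-fold higher, a log2 ratio of 0.58, just short of the threshold and above 95.7% of measured genes, at its only probe set. Pfkl, the liver type, had 2159 in Phc2 L307R and 1733 in wild type, a log2 ratio of 0.32, and its second measured probe set gave 0.29. Pfkp, the platelet type, had 991.5 in Phc2 L307R and 1162 in wild type, a log2 ratio of -0.23. Its other probe sets gave 0.11 and 0.12, so the direction of Pfkp depends on the probe set. Signals of different probe sets are not amounts of transcript on 1 scale, so these values do not rank the subunits by abundance.

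The enzymes that close the upper part gave small ratios. Aldoa, the main aldolase of muscle and most other cells, had 12365 in Phc2 L307R and 10632 in wild type, a log2 ratio of 0.22. All 5 probe sets of Aldoa carry the suffix _x_at, and they ranged from -0.24 to 0.41, with 3 higher and 2 lower. Tpi1, triose phosphate isomerase, had 9835 in Phc2 L307R and 9177 in wild type, a log2 ratio of 0.10, with probe sets from -0.10 to 0.10. Aldoc, the brain aldolase, was below the floor on both arrays, with 79.7 in Phc2 L307R and 89.5 in wild type.

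Of the lower steps, which regain ATP and end in lactate, 5 of 6 measured enzymes were higher in Phc2 L307R. Eno2, the enolase known from neurons, had 433 in Phc2 L307R and 261.7 in wild type. It was 1.65-fold higher, a log2 ratio of 0.73 and the highest of all members, above 98.0% of measured genes. Across the 1914 measured genes within 0.5 log2 units of its mean signal the SD of the log2 ratio was 0.35. Eno2 has only 1 probe set, 1418829_a_at. With the floor added to both signals as a pseudocount it no longer reached 1.5-fold.

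Gapdh, a frequent reference gene, was higher in Phc2 L307R at each control probe set along its transcript. The probe set nearest the 5' end, used for Gapdh here, had 33697 in Phc2 L307R and 24869 in wild type, a log2 ratio of 0.44, and the middle and 3' probe sets gave 0.26 and 0.30. Of the other mouse transcripts with such controls, Actb gave 0.43, 0.40 and 0.42 at its 5', middle and 3' probe sets, while the transferrin receptor gave -0.18, -0.51 and -0.12 and the dim 18S ribosomal RNA controls -0.24, -0.49 and -0.28. The 4 controls of pyruvate carboxylase, also dim, ranged from 0.17 to 0.75 without a floor. Bright probe sets in general were higher on the Phc2 L307R array: the median log2 ratio was 0.14 over 388 genes with a mean signal above 8000, and 0.29 over the 65 genes within 0.5 log2 units of Gapdh. The bacterial and phage controls added at hybridisation, 18 probe sets, ranged from -0.28 to 0.34 with a median of -0.10, and the 4 brighter than 8000 ranged from -0.01 to 0.34. Further bacterial controls, dap, lys, phe and thr, many of them dim, ranged from -0.69 to 0.44 without a floor. These were lower in Phc2 L307R at every probe set except AFFX-r2-Bs-thr-M_s_at.

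Ldhb, the lactate dehydrogenase subunit of heart type, was higher at all 4 of its probe sets. It had 1746 in Phc2 L307R and 1282 in wild type, a log2 ratio of 0.45, with the others from 0.13 to 0.34. Ldha, the subunit of muscle type that favours lactate, had 17586 in Phc2 L307R and 15269 in wild type, a log2 ratio of 0.20, close to the median of 0.16 over 183 genes of like signal. Pgk1, the first ATP-making kinase of the path, had 15123 in Phc2 L307R and 13099 in wild type, a log2 ratio of 0.21, with other probe sets at -0.02 and 0.06. Against these, Pgam1, phosphoglycerate mutase, was lower: it had 8190 in Phc2 L307R and 9047 in wild type, a log2 ratio of -0.14 at its only probe set.

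Part of the shift of the enzymes went along with signal. The 6 enzymes with a mean signal above 8000 (Aldoa, Tpi1, Gapdh, Pgk1, Pgam1 and Ldha) had a median log2 ratio of 0.21, beside 0.14 over all genes of that class. The 6 between 500 and 2000 (Hk1, Hk2, Pfkl, Pfkm, Pfkp and Ldhb) had 0.24, beside 0.06 over the 4522 genes of that class. With a loess of the log2 ratio on signal subtracted, the enzyme median was 0.11, beside 0.00 for all measured genes.

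**Figure D2:**
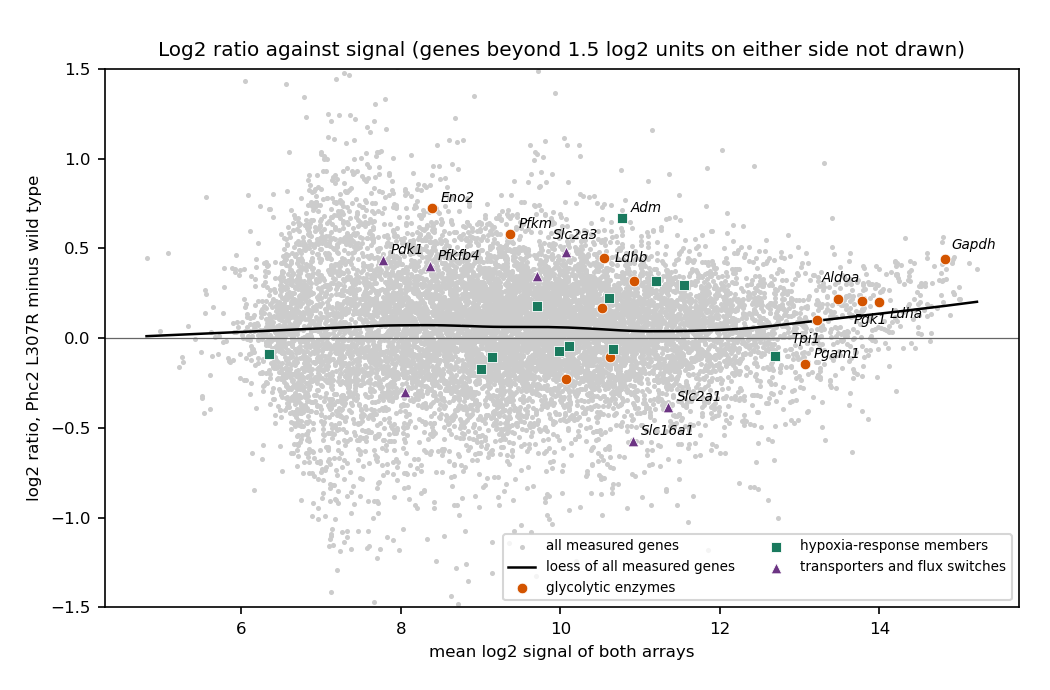
Log2 ratio (Phc2 L307R minus wild type) against the mean log2 signal of both arrays, for all measured genes (grey) and the measured members by group, with the loess of all measured genes as a line. The loess turns upward among the brightest genes, where Gapdh, Ldha, Pgk1 and Aldoa lie, whereas Eno2, Pfkm and Adm lie well above it at lower signal.

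The flux switches act on phosphofructokinase or on pyruvate dehydrogenase. Pdk1, a kinase that shuts off pyruvate dehydrogenase and a known target of hypoxia-inducible factor, had 253.9 in Phc2 L307R and 187.9 in wild type, a log2 ratio of 0.43. Its measured probe sets ranged from -0.15 to 0.43, with 2 higher and 1 lower. The bifunctional enzymes Pfkfb3 and Pfkfb4, which make and remove the sugar phosphate that activates phosphofructokinase, went opposite ways. Pfkfb3 had 239.5 in Phc2 L307R and 295.4 in wild type, a log2 ratio of -0.30, and its second probe set gave -0.36. Pfkfb4 had 377.6 in Phc2 L307R and 286.1 in wild type, a log2 ratio of 0.40 at its only probe set.

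The factors and sensors of the hypoxia pathway were all nearly level, with each of the 4 slightly lower in Phc2 L307R. Hif1a, the oxygen-controlled subunit of hypoxia-inducible factor, had 6395 in Phc2 L307R and 6852 in wild type, a log2 ratio of -0.10, and its 4 probe sets ranged from -0.22 to 0.15. Epas1, its relative in vessels and other tissues, had 1082 in Phc2 L307R and 1117 in wild type, a log2 ratio of -0.05, with 0.17 at its second probe set. None of these gaps exceeds the SD between probe sets. Egln1, the main prolyl hydroxylase that marks these factors for destruction, had 984.4 in Phc2 L307R and 1036 in wild type, and both of its probe sets gave -0.07. Egln3, a prolyl hydroxylase that is itself induced by hypoxia, had 484.9 in Phc2 L307R and 547.4 in wild type, a log2 ratio of -0.17, with 0.28 at its second probe set. The directions of Epas1 and Egln3 turned when the mean over their probe sets was taken, at 0.06 and 0.05.

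Among the targets that carry out the hypoxia response, Adm stood apart. Adm encodes adrenomedullin, a peptide that widens vessels. It had 2214 in Phc2 L307R and 1391 in wild type at probe set 1447839_x_at, 1.59-fold higher with a log2 ratio of 0.67. Its second probe set, 1416077_at, had 1769 in Phc2 L307R and 1128 in wild type, a log2 ratio of 0.65. The probe sets of Adm thus gave nearly the same ratio, which was above 97.4% of measured genes. The SD of the log2 ratio was 0.30 over the 1829 measured genes of like signal.

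Other targets were modestly higher. Ddit4, an inhibitor of mTOR signalling that hypoxia and other stresses induce, had 2637 in Phc2 L307R and 2113 in wild type, a log2 ratio of 0.32 at its only probe set. Ero1l, named Ero1a in RefSeq, is the oxidase that forms disulphide bonds in the endoplasmic reticulum. It had 1683 in Phc2 L307R and 1439 in wild type, a log2 ratio of 0.23, and all 3 of its probe sets were higher, from 0.14 to 0.40. Bnip3, a receptor for the removal of mitochondria, had 889.9 in Phc2 L307R and 785.8 in wild type, a log2 ratio of 0.18 at its only probe set.

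The collagen prolyl hydroxylases, which stabilise the collagen triple helix, differed by probe set. P4ha1 had 3323 in Phc2 L307R and 2709 in wild type, a log2 ratio of 0.30, but -0.04 at its second probe set. P4ha2 had 1582 in Phc2 L307R and 1651 in wild type, a log2 ratio of -0.06 at its only probe set. Neither of these ratios exceeds the SD between probe sets. On the same arrays the collagens Col1a1, Col1a2 and Col3a1, fibroblast markers, were at 0.40, 0.45 and 0.56. Other probe sets of these collagens gave ratios down to 0.31, 0.40 and 0.29. Their mean signals lay above 8000, where the median over 388 genes was 0.14, and 3 of the 11 measured fibroblast markers were lower. The part of the collagens in the values of P4ha1 and P4ha2 was not tested.

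Ndrg1, a stress-response protein often used as a marker of hypoxia, was not higher at any probe set. It had 543.6 in Phc2 L307R and 585.5 in wild type, a log2 ratio of -0.11, and its 5 probe sets ranged from -0.32 to -0.01. Car9, the membrane carbonic anhydrase that is among the most hypoxia-specific targets in tumours, had 66.1 in Phc2 L307R and 100.7 in wild type. Only the wild-type value lay above the floor, so the log2 ratio is a bound, -0.09 or lower, and it was -0.61 without a floor. Ankrd37, an ankyrin-repeat protein and hypoxia target, was below the floor on both arrays, with 56 in Phc2 L307R and 64.6 in wild type. In all, 5 of the 8 measured targets were higher and 3 lower.

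**Figure D3:**
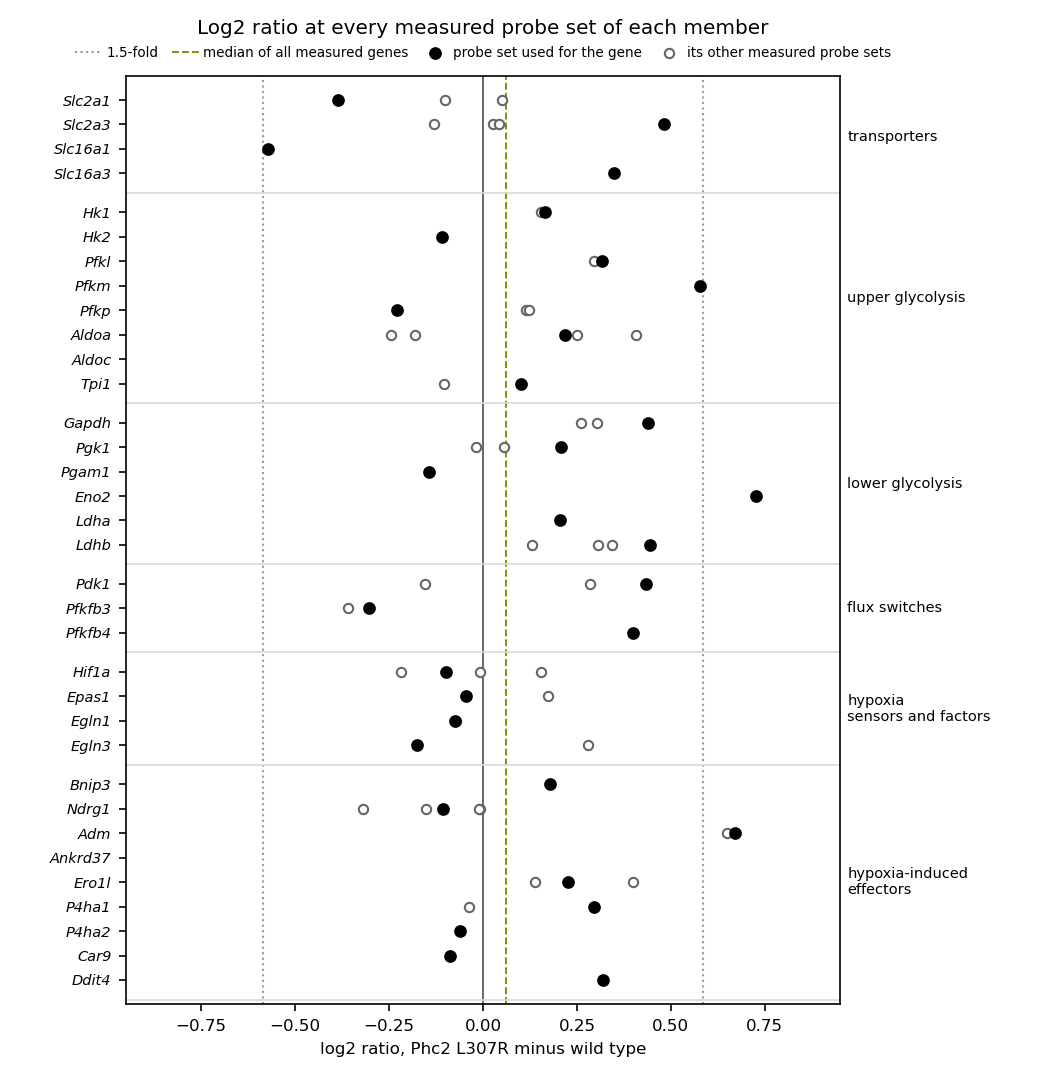
Log2 ratio (Phc2 L307R minus wild type) at every measured probe set of each member, with signals below the floor raised to it. Filled points are the probe sets used for the genes, dotted lines mark 1.5-fold and the dashed line the median of all measured genes, 0.06. The probe sets of Adm, Hk1, Pfkl and Ldhb each fall on the same side of 0, and those of Aldoa, Slc2a3, Egln3 and Pdk1 on both sides.

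Probe sets of a gene were a close guide to each other in some members only. Of the 32 measured members, 12 rested on a single measured probe set. Among the remaining 20, every measured probe set was higher in 6 (Hk1, Pfkl, Gapdh, Ldhb, Adm and Ero1l), every one was lower in 3 (Pfkfb3, Egln1 and Ndrg1), and 11 had probe sets on both sides of 0. The SD between probe sets of a gene was 0.19 over these 20 members, beside 0.32 over all 5461 genes. In 21 of the 32 the log2 ratio was smaller than the latter SD.

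Enzymes lay above hypoxia-response genes under every processing tried, but the gap varied. The median of the enzymes exceeded that of the hypoxia-response genes by 0.26 on the log2 scale, and by 0.10 to 0.27 under the 10 alternatives. Centring subtracts a constant and leaves the gap at 0.26 by construction. Raising, lowering or removing the floor, or requiring signal above it on both arrays, altered the ratio of no reported member but Car9. Agreement under these settings therefore says little about the gap. The smallest gap came with the mean over probe sets, where the hypoxia-response median was 0.058 and the enzyme median 0.16. Inside the hypoxia-response group, the 8 measured targets had a median of 0.20, beside -0.09 for the 4 factors and sensors. No test of these gaps was made.

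**Figure D4:**
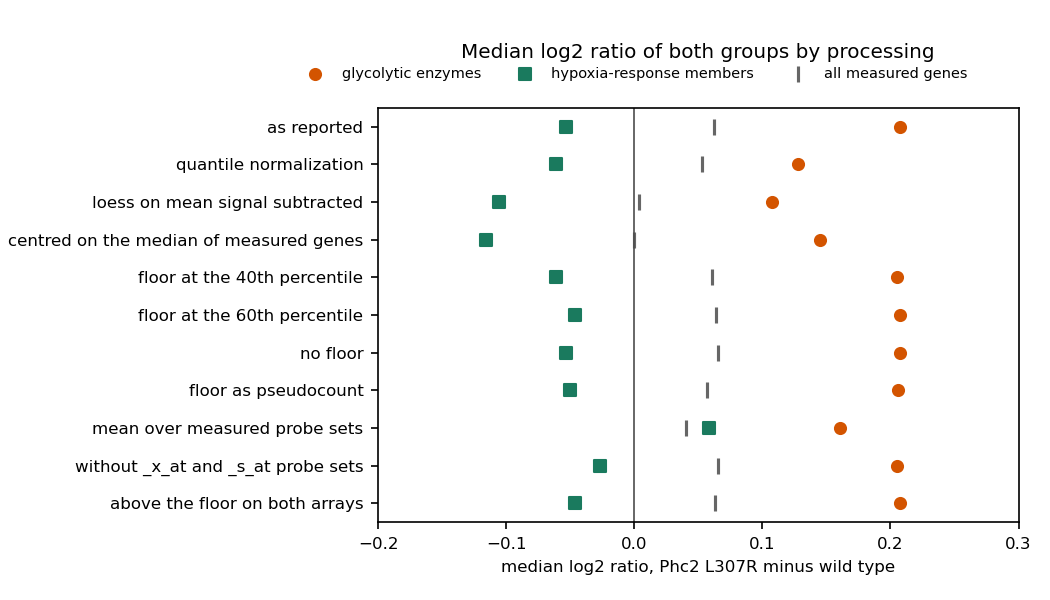
Median log2 ratio (Phc2 L307R minus wild type) of the measured glycolytic enzymes (circles), hypoxia-response genes (squares) and all measured genes (ticks), as reported and under 10 other ways of processing. The enzyme median ranges from 0.11 to 0.21, and the hypoxia-response median is below 0 except with the mean over measured probe sets, where it is 0.058.

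Lists of neighbouring pathways, written from general knowledge, differed in direction. The other glycolytic genes had 16 measured of 25, 9 higher and 7 lower, with a median log2 ratio of 0.02. Of these Bpgm, which makes the phosphoglycerate that loosens oxygen from haemoglobin, was lowest at -0.70, though its probe sets ranged up to 0.41. Control of pyruvate dehydrogenase had 11 measured of 12, 7 of them lower (median -0.14), and the pentose phosphate path 9 of 10, 5 of them higher (median 0.08). The tricarboxylic acid cycle had 19 measured of 20, 11 of them higher, with a median of 0.05. The cytosolic enzymes Mdh1 and Aco1, lowest of that list at -0.83 and -0.68, had other probe sets up to 0.18 and -0.04.

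Further genes of oxygen sensing had 14 measured of 15, 10 higher and 4 lower, with a median log2 ratio of 0.09. Other known hypoxia targets had 43 measured of 51, 26 higher and 17 lower, with a median of 0.11. At least 1.5-fold higher were 5 of these 43, led by Gys1, a glycogen synthase, at 1.10 and the histone demethylase Kdm4b at 0.73, a share of 11.6% against 4.19% of all measured genes, and none was as far lower, against 3.25%. Gys1 gave -0.10 at its other measured probe set. A list of stress-pathway genes, drawn up around Ddit4 and Ero1l, had 9 of 10 higher, against 59.1% of all measured genes. Its median was 0.21, with Sesn2, an inhibitor of mTOR signalling, highest at 0.60. Sesn2, which lies on the chromosome of Phc2, had 0.23 at its second probe set.

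Other features of the arrays went along with these values. Markers of fibroblasts were measured at 11 of 12 genes, 8 of them higher, with a summed signal of 176244 in Phc2 L307R and 134236 in wild type. The 3 lower were Pdgfrb (-0.34), Pdgfra (-0.12) and S100a4 (-0.12), though Pdgfrb and Pdgfra had other probe sets up to 0.33 and 0.77. Bright probe sets, which were higher in general on the Phc2 L307R array, dominate this sum, Vim with 41327 in Phc2 L307R and 30907 in wild type. Vim and Fn1 also had probe sets down to -0.22 and -0.33. Cartilage markers were measured at 10 of 10, 9 of them higher, with a median log2 ratio of 1.03. Of these 8 were at least 1.5-fold higher, a share of 80% against 4.19% of all measured genes. At least 2-fold higher were 6, against 66 of all 11409 measured genes. Cnmd and Matn1 were at 1.69 and 1.62 or more, while Sox9 was lower, at -0.29 and -0.08 at its 2 measured probe sets. The summed signal of the cartilage markers was 9564 in Phc2 L307R and 6133 in wild type. Markers of cycling cells were measured at 9 of 10, 8 of them lower, with 29927 in Phc2 L307R and 34887 in wild type. Of the lower ones, Top2a and Mcm2 had other probe sets up to 0.25 and 0.06. Muscle markers were measured at 6 of 7, 4 higher and 2 lower, with 19175 in Phc2 L307R and 17821 in wild type. Actc1 dominates this sum, with 11525 in Phc2 L307R and 10151 in wild type. Macrophage markers were measured at 4 of 8, 3 higher and 1 lower, and summed to 704.4 in Phc2 L307R and 514.1 in wild type. Endothelial markers were measured at 4 of 7, 2 higher and 2 lower, with 766.1 in Phc2 L307R and 822.9 in wild type. The lower endothelial sum rests on Emcn, at 94.9 in Phc2 L307R, next to the floor, and 210.8 in wild type. Egfl7, the other lower one, had probe sets up to 0.67. Epithelial markers were measured at 2 of 6, with 695.6 in Phc2 L307R and 881.4 in wild type. The defining markers Ptprc, Pecam1, Epcam and Cdh1 did not reach the floor on either array, nor did any of the 4 erythroid markers with a probe set. The part of these differences in the members' values was not tested, and fewer cells of a type and less RNA per cell cannot be told apart in such samples.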

How the data were processed

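Intensity was measured on 2 arrays of biotin-labelled cRNA, and the authors deposited it as linear signals of 45101 probe sets. Per the submitters' processing notes it was made with Affymetrix Expression Console and MAS5, without versions. The mean of each array, with 2% trimmed at each end, was 500.0, so the signals were used without further scaling. Symbols came from the platform annotation and were updated through RefSeq (GRCm38.p6), which matched 34741 of 34945 probe sets with 1 symbol. Control probe sets were left out except those of Gapdh. The floor was the higher of the array medians (94.3 in Phc2 L307R and 94.8 in wild type), and lower signals were raised to it. Log2 ratios are Phc2 L307R minus wild type. The number of arrays limits the precision: with 1 per genotype no test was possible and no p-value was computed. Every member was named. The neighbouring lists give counts, and up to 2 genes at either end past 1.5-fold are named for them. The members, lists and thresholds were chosen with earlier results of these data known. Alternatives were quantile, loess (span 0.4, 3 iterations) and median scaling, other floors, a pseudocount, the mean over probe sets, the removal of _x_at and _s_at probe sets and a 2-fold threshold. The calculations were tested on simulated arrays and run with Python 3.11.15, pandas 2.3.3 and statsmodels 0.14.6.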

Additional observations from a re-analysis of the deposited data

How the results depend on the processing

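Of 317 alternative values for single members, 313 lay within the SD between probe sets (0.32) of the reported one. The exceptions were Slc2a3, at 0.10 when its probe sets were averaged and 0.04 when those ending in _x_at or _s_at were dropped, and Car9, at -0.61 once the floor was lowered to the 40th percentile or removed. Signs turned in 3 members, Pfkp, Epas1 and Egln3, each on averaging probe sets. These 3 still counted as within the SD, Pfkp moving from -0.23 to 0.003 and Egln3 from -0.17 to 0.05. The reported log2 ratio of 21 members was itself smaller than that SD, so the count of 313 says little about robustness. Raising, lowering or removing the floor, or requiring signal above it on both arrays, left the ratio of every member but Car9 unchanged. For those members such values lay within the SD by construction. The enzyme median was 0.11 after loess, and the hypoxia-response median 0.058 on averaging probe sets. The count of members at least 1.5-fold higher was 1 with the pseudocount and 0 at 2-fold. The count at least 1.5-fold lower was 1 after loess and after centring (Slc16a1), and 1 under the lowered floor and without any (Car9). Requiring signal above the floor on both arrays, chosen after seeing the data because of Car9, left the medians at 0.21 and -0.05. Over all measured genes, 478 passed 1.5-fold upward and 371 downward. Centring turned these to 338 and 487, and loess to 334 and 492. The pseudocount gave 237 and 220, and the floor at the 40th and 60th percentile 721 and 289 higher genes. No paired analysis was possible because each genotype has 1 array.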
